A study of Mus musculus with 37 samples.

Results

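The genes described here encode proteins that organise microtubules and shape the poles of the oocyte spindle, which is built without centrioles. They are Pcnt, Cep192, Nedd1, Cdk5rap2, Tacc3, Ckap5, Clasp1, Clasp2 and Numa1. They were chosen by name for their known roles and make up 9 of the 54752 genes listed in the count tables.

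Growing mouse oocytes lose their centrioles. When the large nucleus of the oocyte, the germinal vesicle, breaks down, many small microtubule organizing centers (MTOCs) nucleate the spindle and are later sorted into its poles. Pericentrin, the product of Pcnt, is a scaffold of these centers, and CEP192, CDK5RAP2 and NEDD1 help to place or activate the gamma-tubulin complexes from which microtubules grow. TACC3, CKAP5 and the CLASP proteins act on microtubule growth and stability, and NuMA, the product of Numa1, gathers minus ends at the poles together with dynein.

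RNA from 37 single oocytes of C57BL/6 mice was sequenced after Smart-seq2, a protocol that copies and amplifies the RNA of a single cell, to follow the transcriptome through oocyte maturation. Batch A held 6 oocytes at the germinal vesicle (GV) stage, arrested before meiosis resumes, and 6 at metaphase II (MII), the stage of the ovulated egg. Batch B held 10 GV oocytes and 15 at metaphase I (MI). All came from young sexually mature females primed with pregnant mare serum gonadotropin (PMSG), with human chorionic gonadotropin (hCG) given before MII oocytes were taken. Ovaries were the source of the GV oocytes, while the oviduct, at its ampulla, gave those at MII. MI oocytes were denuded GV oocytes that matured in M16 medium, so that MI was reached in culture and MII in the animal. GV was the only stage sequenced in both batches, and each later stage was compared with the GV oocytes of its own batch. Nothing in the labels says that the oocytes of a group came from separate animals, so the p-values below measure only the spread between these oocytes.

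Depth was counted as RSEM expected counts, the number of reads estimated for each gene, summed over genes. It ranged from 7509812 to 12648571 in the GV oocytes of batch A (median 10013962.5) and, with a median of 10509080, from 9930422 to 13988336 in those at MII. In batch B it ranged from 7184193 to 17724506 in GV oocytes (median 11548239) and from 2709247 to 19390137 in MI oocytes (median 12840682). A few libraries stood apart. MII oocyte 1 had 29816 genes with at least 1 count, where the other MII oocytes had 19574 to 22598. MI oocyte 15 had the lowest depth and 12654 genes detected. In MI oocytes 4, 8 and 9 HTSeq counts of a gene were, at the median, 1.07 to 1.13 times the RSEM counts, against 1.98 to 2.19 times in the other oocytes. A ribosomal RNA gene, CT010467.1, took 7.24% to 21% of the counts of a GV oocyte and 14.6% to 30% of those of an MII oocyte in batch A, and 20.7% to 34% at GV and 17.6% to 41.5% at MI in batch B. How far this share bears on the changes between stages below was not tested. The reads carried no molecular identifiers, so errors from counting alone would be too small.

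Tacc3 was the most abundant of the 9 genes in every group. Levels are compared between genes as CPM, the counts of a gene scaled to a common library size, per kilobase of transcript, a scale that removes the effect of transcript length. On this scale Tacc3 lay between 208 and 324 (median 280) in GV oocytes of batch A and between 160 and 181 (median 177) in MII oocytes. Its lowest oocyte was above the highest Pcnt oocyte in all 4 groups, while every other gene overlapped its neighbour in the order, apart from 3 cases in batch A. Pcnt came next, with medians of 41.9 and 47.9 in GV and MII oocytes of batch A and 64 and 84.8 in GV and MI oocytes of batch B. Ckap5, Numa1 and Nedd1 followed in that order of group means in all 4 groups, each overlapping the gene before it. Nedd1 and Clasp2 did not overlap in either group of batch A, nor did Clasp2 and Cep192 in MII oocytes. By group mean, Clasp2 was the sixth gene in both groups of batch A (means 10.4 and 18) and the last in both groups of batch B (4.21 and 4.52), with ranges there that overlapped those of Clasp1 and Cep192. GV oocytes of the 2 batches differed in this place, so it goes with the batch.

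Within batch A, 3 of the 9 genes were higher at MII (Clasp2, Nedd1 and Cep192) and 1 was lower (Tacc3), by edgeR's quasi-likelihood test at a Benjamini-Hochberg adjusted p under 0.05. Of all 12929 genes tested, 9.06% were higher and 11.5% were lower by the same rule, so the shares among the 9 rest on few genes. The fold changes were moderate: 0 of 9 were called, that is, also passed a fold change over 2, by edgeR or by DESeq2, where 8.47% of all genes did by edgeR, and 6 of 9 had an unadjusted p under 0.05 in edgeR, as did 4441 of all genes. The median log2 fold change of the 9 genes was 0.40, against 0.01 for all genes tested. These values use TMM scaling, in which most genes are taken not to change between oocytes. Scaled to the added spike-in RNA instead, the median of all genes moved to -0.72, and Clasp2, with a log2 fold change of 0.06, was the only 1 of the 9 without a negative value. On that scale 0 of the 9 were higher (1.11% of all genes) and 3 were lower (42.2%) at an adjusted p under 0.05, namely Tacc3, Cdk5rap2 and Clasp1.

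**Figure D1:**
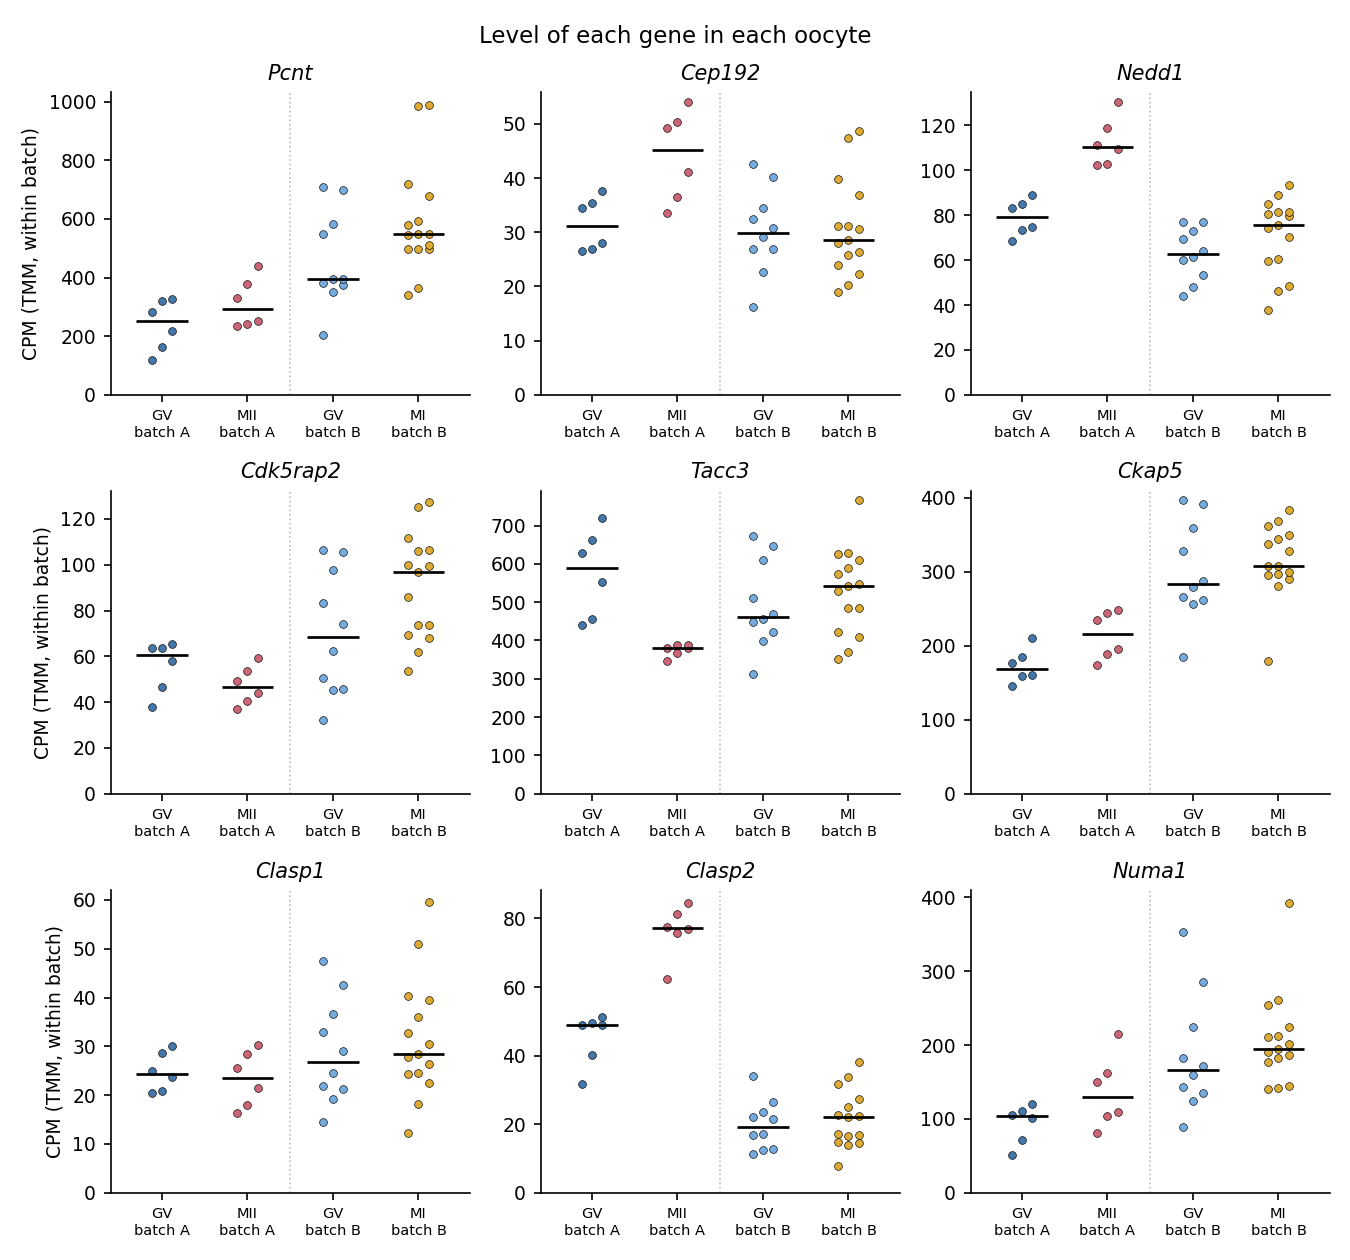
Level of each of the 9 genes in each oocyte, in CPM after TMM scaling within the batch, with 1 point per oocyte and a bar at the median of the group. In batch A the 6 MII oocytes lie above all GV oocytes for Nedd1 and Clasp2 and below them for Tacc3, and in batch B the GV and MI oocytes overlap for every gene. The share of all genes that separate in this way was not counted.

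Among the scaffold and nucleation genes, Nedd1 and Cep192 were higher at MII with TMM scaling. Both had the opposite sign with spike-in scaling, but lay above the median of all genes on that scale. Spike-in scaling moves all genes of an oocyte by the same factor. Here and below, values relative to that median therefore largely repeat the TMM values and are not separate support for a change. Nedd1 encodes the adaptor that attaches the gamma-tubulin ring complex to its sites, and lies at chr10:92684746-92722420 (all positions are on GRCm38, the assembly also named mm10). Its level in batch A was 68.4 to 88.9 CPM (median 79) in GV oocytes and 102 to 130 CPM (median 111) in MII oocytes. The log2 fold change was 0.51 (standard error, SE, 0.12, edgeR adjusted p = 0.00707), and every MII oocyte was above every GV oocyte. The share of all genes whose groups separate in this way was not counted, here or for Tacc3 and Clasp2 below. With each of the 12 oocytes left out in turn the adjusted p stayed between 0.00918 and 0.0197. Without a filter on low counts it was 0.0624, and over all alternatives it ran from 0.000482 to 0.561. Spike-in scaling turned the sign, to -0.21, or to -0.19 without MII oocyte 1, where the adjusted p was highest. Relative to the median of all genes on the spike-in scale Nedd1 was at 0.50.

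Cep192 (chr18:67800107-67885170) encodes a scaffold that brings Aurora A and Polo-like kinases to the MTOCs. Its level was 26.5 to 37.6 CPM (median 31.2) in GV oocytes of batch A and 33.5 to 54 CPM (median 45.2) in MII oocytes, so that 4 of 6 MII oocytes were above all GV oocytes and the groups overlapped. The log2 fold change was 0.49 (SE 0.16, edgeR adjusted p = 0.0383) with TMM scaling and turned to -0.28 with spike-in scaling, or 0.43 relative to the median of all genes on that scale. With each oocyte left out the log2 fold change stayed between 0.43 and 0.56, and the adjusted p stayed under 0.05 in 6 of 12 cases. Without GV oocyte 3, 4 or 6 or MII oocyte 2, 4 or 6 the adjusted p was 0.0683 to 0.0916, without the low-count filter it was 0.117, with batch as a covariate it was 0.122, and over all alternatives it ran from 0.0269 to 0.552.

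Pcnt (chr10:76351263-76442786) and Cdk5rap2 (chr4:70216856-70410443), whose product anchors and activates gamma-tubulin complexes, did not pass the test in batch A. Pcnt ranged from 117 to 328 CPM (median 251) in GV oocytes and from 236 to 438 CPM (median 292) in MII oocytes. Its log2 fold change was 0.40 (SE 0.24, edgeR adjusted p = 0.254) with TMM scaling and -0.37 with spike-in scaling, or 0.35 relative to the median of all genes there. The groups overlapped, with the highest GV oocyte above the median of MII. Cdk5rap2 ranged from 37.7 to 65.3 CPM (median 60.7) at GV and from 36.8 to 59.3 CPM (median 46.5) at MII, a log2 fold change of -0.24 (SE 0.17, adjusted p = 0.33). Here 3 GV oocytes were above all MII oocytes and 1 MII oocyte was below all GV oocytes, while the groups overlapped. With spike-in scaling Cdk5rap2 was lower by edgeR's test, with a log2 fold change of -0.99 (SE 0.27, adjusted p = 0.00621, range over the alternatives 0.00621 to 0.762), or -0.27 relative to the median of all genes on that scale.

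Among the genes for microtubule growth and stability, Tacc3 fell and Clasp2 rose. Tacc3 (chr5:33658128-33678995) encodes a protein that, with CKAP5 and clathrin, stabilises spindle microtubules. It was at 442 to 720 CPM (median 590) in GV oocytes of batch A and at 347 to 389 CPM (median 381) in MII oocytes. The log2 fold change was -0.62 (SE 0.14, edgeR adjusted p = 0.0047), and all 6 MII oocytes were below all 6 GV oocytes. The MII oocytes were close to each other, with a standard deviation of 15.8 CPM against 113 CPM at GV. With any oocyte left out the adjusted p stayed between 0.00309 and 0.0138, and over 8 alternatives it ran from 0.00014 to 0.0306. With spike-in scaling the fall was larger, a log2 fold change of -1.36 (SE 0.24, adjusted p = 0.00014), which also passed the fold threshold. By that rule 30.3% of all genes passed, 131 higher and 3788 lower, against 278 higher and 817 lower with TMM. Relative to the median of all genes on the spike-in scale Tacc3 was at -0.65, near its value with TMM, which this measure largely repeats.

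Clasp2 (chr9:113741473-113919682) and Clasp1 (chr1:118389058-118612678) encode related proteins that bind the microtubule lattice and plus ends and slow their shrinkage. Clasp2 was at 31.6 to 51.4 CPM (median 48.9) in GV oocytes of batch A and at 62.4 to 84.5 CPM (median 77.2) in MII oocytes, with no overlap. Its log2 fold change of 0.76 (SE 0.14, edgeR adjusted p = 0.00178), a 1.69-fold difference (95% confidence interval 1.37 to 2.09), was the largest of the 9 genes in this comparison. It kept an adjusted p of 0.0056 or less with any oocyte left out, but with spike-in scaling the log2 fold change was 0.06 and the adjusted p 0.826 (range over the alternatives 1.98e-05 to 0.843). Relative to the median of all genes on that scale Clasp2 was at 0.78. Clasp1 was at 20.4 to 30 CPM (median 24.3) at GV and at 16.3 to 30.3 CPM (median 23.5) at MII. The log2 fold change was -0.09 (SE 0.18, edgeR adjusted p = 0.779), its sign rested on MII oocyte 3 (0.003 without it), and the groups overlapped. With spike-in scaling Clasp1 was lower, at -0.82 (SE 0.29, adjusted p = 0.0268, range over the alternatives 0.0268 to 0.974), or -0.11 relative to the median of all genes on that scale.

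Ckap5 (chr2:91526762-91620664) encodes the mouse homologue of XMAP215, a protein that adds tubulin to growing plus ends. It was at 146 to 210 CPM (median 168) in GV oocytes of batch A and at 174 to 248 CPM (median 216) in MII oocytes. Its change on the log2 scale was 0.31 (SE 0.13, edgeR adjusted p = 0.107) and turned to -0.42 with spike-in scaling, or 0.29 relative to the median of all genes. Numa1 (chr7:101934111-102014964), the gene for the minus-end protein NuMA, was at 51.4 to 120 CPM (median 103.4) at GV and at 81.5 to 216 CPM (median 130) at MII. This gave a log2 fold change of 0.55 (SE 0.24, edgeR adjusted p = 0.108), or -0.17 with spike-in scaling and 0.55 relative to the median of all genes there. For each of these genes 3 MII oocytes were above all GV oocytes while the groups overlapped, and neither passed the test under any of 8 alternatives, whose adjusted p ran from 0.0985 to 0.273 for Ckap5 and from 0.0702 to 0.643 for Numa1.

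The spike-in RNA itself varied. From 44665 to 128319 counts came from spike-ins in the GV oocytes of batch A and from 120280 to 143061 in the MII oocytes, and the oocytes of batch B had at most 32. The scaling was therefore possible in batch A alone. The amount of spike-in RNA added to each oocyte is not given in the sources used here, and less RNA per oocyte at MII and more spike-in RNA per oocyte cannot be told apart. Per 1000 spike-in counts, Tacc3 had 32 to 99.9 counts (median 79.9) at GV and 23.6 to 32.9 (median 30.5) at MII. GV oocyte 4, with the most spike-in counts of the GV group, was the only GV oocyte in the range of MII. Clasp2 had 3.43 to 7.3 counts (median 5.8) at GV and 4.09 to 7.04 (median 6.17) at MII on the same scale, and Nedd1 had 6.23 to 13.3 (median 9.92) and 7.3 to 10.7 (median 8.23). The groups of both genes overlapped widely. Whether TMM or spike-in scaling is closer to the amount of each mRNA per oocyte was not tested.

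**Figure D2:**
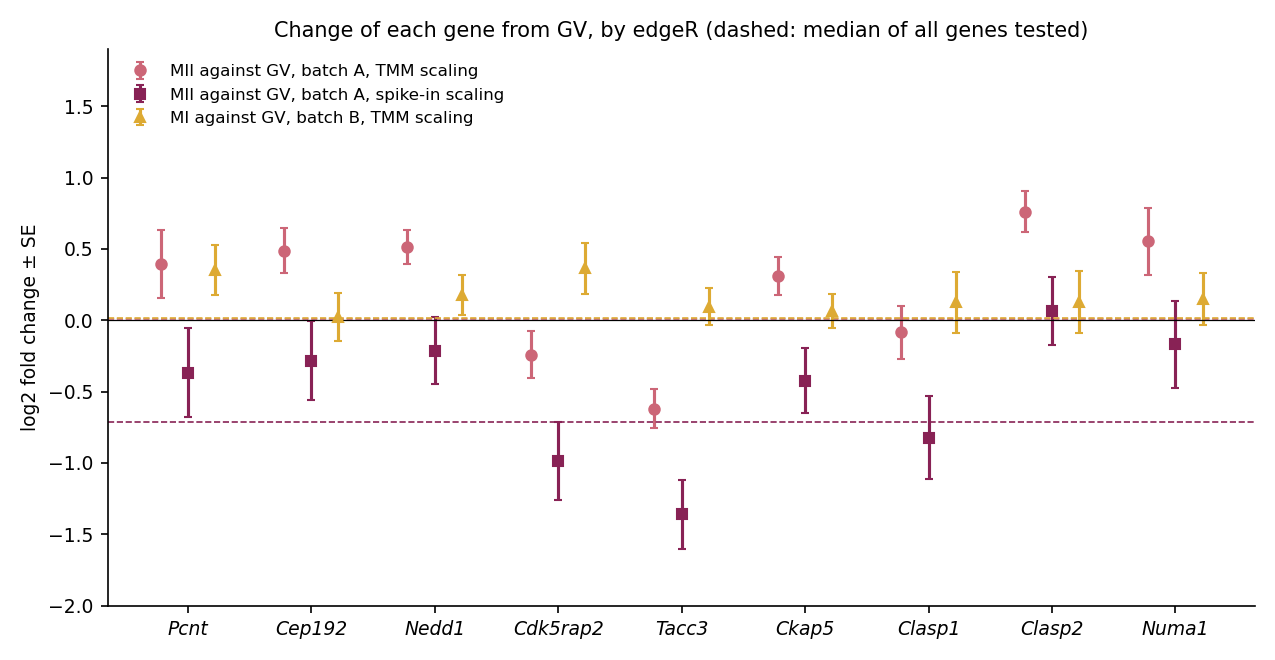
Log2 fold change from GV with its standard error by edgeR for each of the 9 genes, for MII in batch A with TMM scaling (circles) and with spike-in scaling (squares), and for MI in batch B with TMM scaling (triangles). Dashed lines give the median of all genes tested, 0.01, -0.72 and 0.02 in that order, and with spike-in scaling the signs of Pcnt, Cep192, Nedd1, Ckap5 and Numa1 turn negative.

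Between GV and MI oocytes of batch B, 0 of the 9 genes changed by edgeR at an adjusted p under 0.05, and 0 had an unadjusted p under 0.05. DESeq2 and HTSeq counts also called 0 of 9. Across all 12419 genes tested 0.145% passed the adjusted p, and 0.121% also passed the fold threshold. The median log2 fold change of the 9 genes was 0.13, against 0.02 for all genes. Cdk5rap2 was nearest to the threshold, at 32 to 106 CPM (median 68.2) in GV oocytes and 53.6 to 127 CPM (median 96.6) in MI oocytes. Its log2 fold change was 0.36 (SE 0.18, adjusted p = 0.454), a 1.29-fold difference with a 95% confidence interval from 0.999 to 1.66, and 4 of 15 MI oocytes were above all GV oocytes. Pcnt was at 204 to 709 CPM (median 396) at GV and 341 to 990 CPM (median 548) at MI. Its log2 fold change was 0.35 (SE 0.18, edgeR adjusted p = 0.463), and 3 of 15 MI oocytes were above all GV oocytes. The other 7 genes had log2 fold changes from 0.02 (Cep192) to 0.18 (Nedd1), with adjusted p from 0.698 to 0.981. For Tacc3, at 313 to 672 CPM (median 462) in GV oocytes and 351 to 767 CPM (median 542) in MI oocytes, the interval of the fold change was 0.89 to 1.28. The fold change at MII in batch A, 0.651 with an interval of 0.534 to 0.793, lies outside that interval. The direct test of the difference, given below, did not pass at its main setting. The result was the same without MI oocytes 4, 8 and 9, the oocytes with a low ratio of HTSeq to RSEM counts, and with each of the 25 oocytes left out in turn, MI oocyte 15 included, with 0 of 9 called each time. Over all genes the 15 called at a fold change over 2 ranged from 0 (without MI oocyte 7) to 82 (without MI oocyte 9) under the same omissions. Leaving out GV oocyte 5 or 8 or MI oocyte 10, 11 or 14 turned the small log2 fold change of Cep192 negative (-0.05 to -0.01).

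Whether the change from GV to MII differed from the change from GV to MI was tested as the difference between the contrasts in a model of all 37 oocytes. None of the 9 genes passed at an adjusted p under 0.05 by edgeR, on RSEM or HTSeq counts, where 5.46% of 15083 genes did, and 2 of 9 had an unadjusted p under 0.05 (Tacc3 and Clasp2), as did 2671 of all genes. Tacc3 came closest, with a difference of -0.65 in log2 fold change (SE 0.21, adjusted p = 0.0609, range over 3 alternatives 0.0374 to 0.128). The lowest of these, the only 1 past the threshold, came without a filter on low counts. For Clasp2 the difference was 0.69 (SE 0.32, edgeR adjusted p = 0.244). The changes at MI and at MII are thus not shown to differ for any of the 9, and batch, stage and maturation in culture cannot be told apart in this contrast.

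Pcnt, Cdk5rap2 and Numa1 varied together from oocyte to oocyte. After the mean of each stage was taken out of log2 CPM, 3 of the 36 pairs that the 9 genes form had a Pearson r over 0.7 in both batches, and these were the pairs among Pcnt, Cdk5rap2 and Numa1, singled out after the values were seen. The share of pairs of all genes past this limit was not counted, so whether 3 of 36 is unusual is not known. Pcnt and Numa1 gave r = 0.91 over the 12 oocytes of batch A (Spearman's rho 0.867, r = 0.861 without the 2 oocytes farthest from the median of Pcnt). In batch B the same pair gave r = 0.821 over 25 oocytes (rho 0.637, r = 0.787 without the 2 farthest). For Pcnt and Cdk5rap2 r was 0.884 in batch A and 0.799 in batch B, and for Cdk5rap2 and Numa1 it was 0.835 and 0.793. Without the 2 oocytes farthest from the median, Pcnt and Cdk5rap2 gave 0.793 and 0.785, and Cdk5rap2 and Numa1 gave 0.722 in batch B but 0.632 in batch A (rho 0.692), under the limit of 0.7. HTSeq counts gave r from 0.801 to 0.943 for these pairs. The median over all 36 pairs was 0.065 in batch A and 0.164 in batch B. Oocytes of a batch share their preparation, and in batch A the deviations of these genes went with the share of counts taken by CT010467.1 (r = 0.904 for Pcnt, 0.776 for Cdk5rap2 and 0.89 for Numa1) and, less closely, with log2 depth (0.528, 0.538 and 0.654). In batch B they did not (0.219, -0.177 and 0.225), and there r with log2 depth was -0.077, 0.149 and 0.065. In batch A, Ckap5 went the other way with CT010467.1 (r = -0.846). The part of this share and of depth in the pattern was not tested.

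At the level of transcripts, the annotation lists 96 for the 9 genes, of which 91 had at least 1 count. In batch A 37 passed the low-count filter, and 0 of them were called at a fold change over 2 by edgeR, where 5.57% of 22461 transcripts were. DESeq2 called 1, Clasp2-211, which edgeR's filter left out and which averaged 0.667 counts in GV and 17.3 counts in MII oocytes. At an adjusted p under 0.05 alone, edgeR found 4 of 37 (9.3% of all transcripts), and 12 of 37 had an unadjusted p under 0.05, as did 5438 of all transcripts. These 4 had the direction of their genes. Nedd1-201 holds nearly all Nedd1 counts in batch A and was higher at MII, with a log2 fold change of 0.50 (adjusted p = 0.0124, but 0.228 without the low-count filter). Ckap5-204, the main coding transcript of Ckap5, was also higher, at 0.45 (adjusted p = 0.0233, but 0.0552 to 0.0712 without MII oocyte 2 or 6 and 0.242 without the filter), while the Ckap5 gene did not pass. Both turned negative with spike-in scaling, to -0.21 and -0.26. Tacc3-203, with 82.1% of the Tacc3 counts at GV and 82.7% at MII, fell by 0.62 on the log2 scale (edgeR adjusted p = 0.0142), and Tacc3-204, a minor form, fell by 0.86 (adjusted p = 0.0461). Tacc3-204 missed an adjusted p of 0.05 (0.0638 to 0.1) on leaving out any oocyte but GV oocyte 2 and MII oocyte 5, without the filter (0.0889) and in DESeq2 (0.0606).

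In batch B 34 transcripts of the 9 genes were tested, and edgeR found 0 of them at an adjusted p under 0.05, with or without the fold threshold, as it did among all 22717 transcripts (0%). DESeq2 called 0 of them and 188 transcripts in all. Nedd1-202, a form with a retained intron, was the only 1 of the 34 with an unadjusted p under 0.05, as 1615 of all transcripts had. It had no counts in any oocyte of batch A. In batch B it was found in 4 of 10 GV oocytes, where it took 0% to 16.2% of the Nedd1 counts, and in 14 of 15 MI oocytes, where it took 0% to 28.8% (median 15.2%). Its adjusted p was 0.702 in edgeR's test of transcripts.

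Shifts in the shares of a gene's transcripts, apart from its total, were tested with edgeR's diffSpliceDGE. None of the 36 transcripts tested in batch A passed an adjusted p under 0.05 (0.937% of all 15586 did), and none of 34 did in batch B (0.0242% of 16502). At an unadjusted p under 0.05 there were 2 in batch A, Ckap5-208 and Clasp1-226, and 1 in batch B, Nedd1-202, where 839 and 354 of all transcripts had such a value, and limma-voom called 0 in either batch. Ckap5-208 and Clasp1-226 are described here because they came nearest, a choice made after their values were seen. Ckap5-208, which keeps part of an intron and has no annotated coding sequence, took up to 28% of the Ckap5 counts in GV oocytes of batch A (median 9.66%, no counts in 2 of 6) and at most 2.73% in MII oocytes (no counts in 4 of 6). Over all counts of a group, its share went from 10.3% at GV to 0.797% at MII. Relative to its gene it changed by -2.56 on the natural log scale (SE 0.70, diffSpliceDGE adjusted p = 0.058, range over 2 alternatives 0.288 to 0.702). Without GV oocyte 3, GV oocyte 6 or MII oocyte 2 the adjusted p was 0.0189 to 0.0308. Over the other omissions of 1 oocyte it reached 0.366, and the change was smallest, at -2.01, without GV oocyte 2. In batch B its share was 3.83% to 28.5% at GV (median 17.6%) and 0% to 29.3% at MI (median 13.8%). Clasp1-226, which the annotation marks for nonsense-mediated decay, took 25% to 71.7% of the Clasp1 counts in GV oocytes of batch A (median 55.4%) and 5.26% to 36.2% in MII oocytes (median 18%). Over all counts of a group, its share went from 55.1% at GV to 21.7% at MII. Relative to its gene it changed by -0.95 on the natural log scale (SE 0.44, diffSpliceDGE adjusted p = 0.822), and the shares of the groups overlapped.

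**Figure D3:**
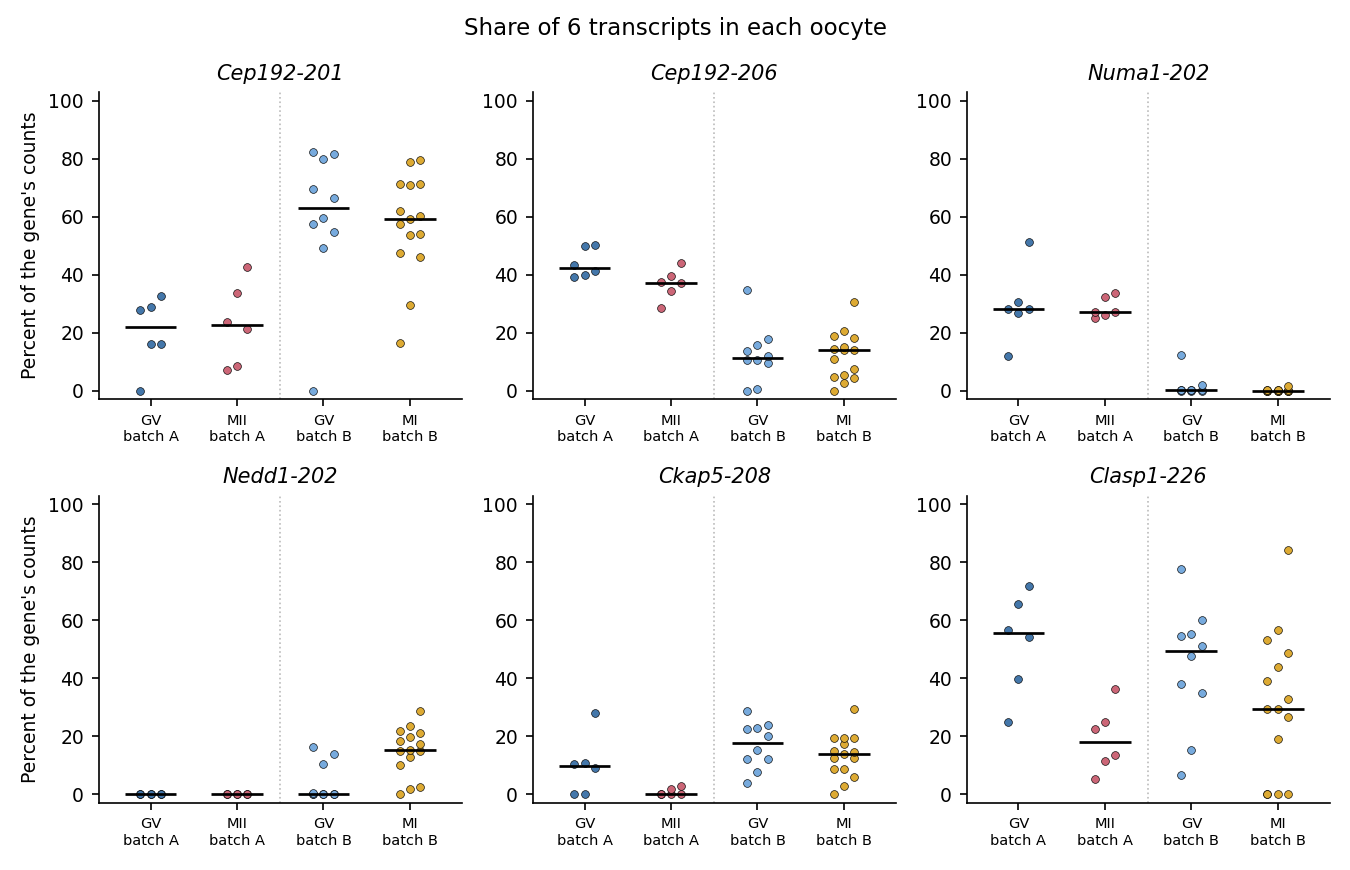
Share of 6 transcripts in the RSEM counts of their gene, in percent, with 1 point per oocyte and a bar at the median of the group. Ckap5-208 is at most 2.73% in MII oocytes, Nedd1-202 has counts in batch B alone, and the 2 Cep192 forms and Numa1-202 differ between the batches more than between stages.

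For several genes most counts were not assigned to the full coding transcript. Coding transcripts took 10.9% to 13.1% of the Pcnt counts in the 4 groups. Pcnt-208, a form of 6762 bases with no annotated coding sequence, took 68.1% and 70.1% in GV and MII oocytes of batch A and 75% and 75.2% in GV and MI oocytes of batch B. For Tacc3 coding transcripts took at least 99.9% in each group. They did so for Numa1 as well, but its full form, Numa1-201, took only 24.4% and 25.8% in GV and MII oocytes of batch A and 56.7% and 52.9% in GV and MI oocytes of batch B, and Numa1-206, a shorter coding form, took 44%, 43.6%, 39.3% and 43.6%. Cep192-201, the full coding form of Cep192, took 21.1% and 24% in batch A and 63.5% and 59.5% in batch B, while Cep192-206, with a retained intron, took 43.5% and 36.4% in batch A and 10.6% and 11.6% in batch B. The groups of a batch overlapped in both. Numa1-202, a shorter coding form, took 27.3% and 27.5% of the Numa1 counts in batch A and 0.56% and 0.0968% in batch B, and its highest share in batch B (12.2%, GV oocyte 7) was just above the lowest in batch A (12%). The GV oocytes of the batches differed as the later stages did, so these splits go with the batch. RSEM divides reads that fit several transcripts by its model, and reads from pre-mRNA or from overlapping forms cannot be told apart in its counts. Cdk5rap2 was split between Cdk5rap2-201, a nonsense-mediated decay form with 50.5% at GV and 40.6% at MII in batch A, and the coding Cdk5rap2-206, with 32.7% and 43.3%. In batch B Cdk5rap2-206 took more, with 47.5% at GV and 46.4% at MI, against 34.7% and 38.9% for Cdk5rap2-201. Clasp2-201 took 54.4% and 52.5% of the Clasp2 counts in GV and MII oocytes of batch A, and Clasp2-204 took 36.3% and 36.6%. In GV and MI oocytes of batch B Clasp2-201 took 68.1% and 70.7%, and Clasp2-204 took 29.3% and 24.1%.

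The bases at a border of Ckap5-208 and of Clasp1-226 are given because the coding transcripts Ckap5-204 and Clasp1-210 do not have these borders. Ckap5-208 runs past the end of exon 12 of Ckap5-204 (91564448) into 720 of the 1172 bases of the next intron. Another annotated form, Ckap5-207, runs into the same intron, and pre-mRNA holds the border too, so reads over it are not particular to Ckap5-208. The window is chr2:91564434-91564463 on the plus strand, with the first intron bases in capitals. Clasp1-226 joins a first exon of 7 bases (chr1:118532079-118532085) to the base at 118545393, past 4 exons of the coding Clasp1-210, a junction that no other annotated Clasp1 transcript has. The window holds this first exon, in capitals, and the bases chr1:118545393-118545415 that follow it on the plus strand.
Ckap5-208: ctcaaacttgataggGTAAGTTAGTAATGG
Clasp1-226: CCACTCGtcgagtagaattgaagagactgt

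Stored oocyte mRNAs are often regulated through letters near their 3′ end, the poly(A) signal (AATAAA or ATTAAA) and the cytoplasmic polyadenylation element (TTTTAT or TTTTAAT, written as DNA). The last 100 bases of the most counted coding transcript with an annotated 3′ UTR were searched on the transcribed strand. Pcnt-202 and Ckap5-204 each held 1 polyadenylation element, 2 of 9 genes, and 2173 of 11089 genes tested (19.6%) did. A poly(A) signal was found in 7 of 9 genes and in 80.8% of all genes. Tacc3-203 and Clasp1-210 held neither kind of letters in this window, and Nedd1-201, Clasp2-201, Cep192-201, Cdk5rap2-206 and Numa1-201 held a poly(A) signal alone. The signals nearest to the end of Nedd1-201 (chr10:92684760-92684789, minus strand) and Clasp2-201 (chr9:113919642-113919671, plus strand), the genes that rose without overlap at MII, are shown with the signal in capitals. Such matches are letters in the annotated sequence, and which ends the oocytes used was not analysed here.
Nedd1-201: tggatttaagcactgagtacAATAAAtttt
Clasp2-201: actgttgtgcatatactggcAATAAAactg

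Genes that act with these 9 were read from lists by complex, with the count at an edgeR adjusted p under 0.05 in batch A and TMM scaling. Over all genes 9.06% were higher and 11.5% lower by this rule (1.11% and 42.2% with spike-in scaling). Whether a list as a whole differs from these shares was not tested. Of 12 genes for the gamma-tubulin ring complex and its tethers 1 was higher (2 without MII oocyte 5) and 2 were lower at MII. The counts were 0 and 3 with spike-in scaling. Tubg2, a gamma-tubulin gene, had a log2 fold change of 0.65 (SE 0.14, adjusted p = 0.00524), which turned to -0.06 with spike-in scaling. Tubgcp2, a core subunit, fell from 23.6 CPM (SD 4.49, n = 6) to 10.7 CPM (SD 3.36, n = 6), a log2 fold change of -1.13 (SE 0.22, edgeR adjusted p = 0.00245). Mzt2, a small subunit, had a log2 value of -1.12 (SE 0.24, edgeR adjusted p = 0.00445). These falls passed the fold threshold, as no change among the 9 genes did with TMM scaling. That of Mzt2 missed it at -0.98 without GV oocyte 4 and at -0.87 with HTSeq counts, and its adjusted p was 0.14 with batch as a covariate. The median log2 fold change over the 12 genes was 0.26. Of 8 augmin genes, whose products branch new microtubules from existing ones, 0 were higher and 3 were lower, or 0 and 6 with spike-in scaling. Haus3 changed by -0.59 (adjusted p = 0.0137, or 0.0822 with batch as a covariate), and Haus1 by -0.85 (adjusted p = 0.0331, but 0.05 to 0.0773 without any of 8 of the 12 oocytes, GV oocytes 2, 4, 5 and 6 and MII oocytes 1, 2, 4 and 5). With HTSeq counts Haus1 was at -0.41 (adjusted p = 0.288), and its adjusted p was 0.0503 without the low-count filter and 0.159 with batch as a covariate. Of 11 other pericentriolar and minus-end genes tested, 3 were higher and 0 lower. They included Pcm1, the scaffold of centriolar satellites (0.54, adjusted p = 0.00942, or 0.0517 without the low-count filter), and Camsap2, which caps free minus ends (0.55, adjusted p = 0.0225, or 0.0508 to 0.0577 without GV oocyte 5 or MII oocyte 4 and 0.0603 with batch as a covariate). The count of 3 was 1 without GV oocyte 5 or MII oocyte 4 and 5 without MII oocyte 3. On the spike-in scale 0 of the 11 were higher and 3 were lower. Both of the genes named turned negative with spike-in scaling, at -0.23 and -0.22. They stayed above the median of all genes on that scale, a placing that largely repeats the TMM result.

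Of 11 genes for centriole duplication, which oocytes express although they hold no centrioles, 3 were higher (1 without MII oocyte 5) and 1 was lower at MII. On the spike-in scale 0 were higher and 3 were lower. Cntrob was at 0.83 on the log2 scale (adjusted p = 0.0249, or 0.0515 to 0.0608 without GV oocyte 2, 4 or 5 or MII oocyte 5) and was at 0.06 with spike-in scaling. Cep120 had 0.58 (adjusted p = 0.028, or 0.05 to 0.0629 without GV oocyte 2 or MII oocyte 4 or 5) and turned to -0.13. Cetn2, a centrin, fell by 0.87 on the log2 scale (adjusted p = 0.00533). Of 13 plus-end and TACC partner genes tested, 3 were higher and 0 were lower, among them Apc (0.67, adjusted p = 0.00177) and Slain2 (0.53, adjusted p = 0.0139), which turned to -0.10 and -0.23 with spike-in scaling. Among the 13 tested, 0 were higher and 5 were lower on that scale. Of 11 genes for NuMA partners, dynein and cortical anchors, 3 were higher (1 without MII oocyte 6) and 1 was lower, or 0 and 5 with spike-in scaling. Gnai3, a G-protein subunit of the cortical anchor, had 0.55 (adjusted p = 0.00628), and Nde1, a dynein regulator, had 0.71 (adjusted p = 0.0393), but 0.0512 to 0.101 without any of GV oocytes 1, 2, 4, 5 and 6 and MII oocytes 2, 3 and 6. With spike-in scaling they turned to -0.17 and -0.03. Dync1i2, a dynein intermediate chain, had -0.41 (adjusted p = 0.0305), or 0.0575 to 0.0708 without GV oocyte 4 or 5 or MII oocyte 1, 4 or 5. Of 9 genes for Ran-dependent spindle assembly, 0 were higher and 2 were lower (1 without GV oocyte 3, 4 or 5 or MII oocyte 1, 2, 4, 5 or 6). The counts were 0 and 5 with spike-in scaling. Kpna2, an importin, changed from 664 to 421 CPM (-0.66, adjusted p = 0.00805), and Nusap1 had -0.55 (adjusted p = 0.0428), or 0.0564 to 0.108 on leaving out any oocyte other than GV oocytes 1 and 6 and MII oocyte 3. Every gene named in this paragraph with a positive value was above the median of all genes on the spike-in scale, a placing that largely repeats the TMM result. With batch as a covariate the adjusted p was 0.143 for Cntrob, 0.0571 for Cep120, 0.0796 for Slain2, 0.409 for Nde1, 0.184 for Dync1i2, 0.0853 for Kpna2 and 0.194 for Nusap1. Without the low-count filter it was 0.0609 for Slain2, 0.0525 for Nde1 and 0.117 for Dync1i2. With HTSeq counts it was 0.0925 for Dync1i2 and 0.0547 for Nusap1, which also missed with RLE size factors (0.0522) and DESeq2 (0.0513). In batch B 0 genes of these 7 lists passed an edgeR adjusted p under 0.05.

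Markers of the oocyte itself were abundant in every library, with a summed level of 12700 to 19200 CPM at GV and 8320 to 10300 CPM at MII in batch A, and 3800 to 7160 CPM at GV and 3710 to 6050 CPM at MI in batch B. Gdf9 was the most abundant of these 10 genes in each group. In batch A 7 of the 10 were lower at MII at an edgeR adjusted p under 0.05 (11.5% of all genes) and 0 were higher (9.06%), with a median log2 fold change of -0.91. Of the 9 spindle pole genes 1 was lower and 3 were higher in the same scaling. On the spike-in scale 9 of the 10 markers and 3 of the 9 genes were lower, and 0 of either were higher. Whether the lists differ was not tested. The 12 cumulus and granulosa markers summed to 12.7 to 52.6 CPM, led by Cyp19a1, and were at medians of 30.7 and 23.6 CPM in GV and MII oocytes of batch A and 27.4 and 22.1 CPM in GV and MI oocytes of batch B. Of these, Ptx3 was at 0 in GV oocytes of batch A, and Amh, Foxl2 and Ptx3 were at 0 throughout batch B. Gja1 and Ccnd2 were lower at MI than at GV in batch B (3.13 to 0.276 CPM and 3.59 to 0.248 CPM, each with an edgeR adjusted p of 0.0174). Both calls were lost with HTSeq counts, with the replicate number as a block and without MI oocyte 7, where 0 of all genes were called. The 8 blood and immune markers summed to at most 7.65 CPM except in MII oocyte 1, with 17.7 CPM. Lyz2 and Cd74 were at 0 in all oocytes outside the MII group, where neither was at 0 in every oocyte. The part of other cells in the values above was not tested.

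For each of the 9 genes, the gene with the most similar levels over the 12 oocytes of batch A was sought among 12928 others by Pearson's r of log2 CPM. Tacc3 went most closely with Mat1a (r = 0.924), Clasp2 with Gfm1 (0.962), Nedd1 with Ythdf3 (0.949) and Cep192 with Stag1 (0.912). Pcnt went with Chd4 (0.979), Numa1 with Tmem132b (0.973), Ckap5 with Oas1d (0.969), Clasp1 with P3h1 (0.939) and Cdk5rap2 with Serbp1 (0.891). These r describe 12 oocytes of 2 stages from 1 batch and were each the highest of all genes compared, and the genes share depth and scaling.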

How the data were processed

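Single-oocyte Smart-seq2 libraries of 37 oocytes in 2 batches were used from the processed tables. Per the submitters' processing notes, the authors trimmed reads with Trim Galore 0.6.4, aligned them to mm10 with STAR 2.7.6a and GENCODE VM20, and made count tables with HTSeq 0.12.4 and expected count tables with RSEM 1.3.1. The deposited values are the count of reads per gene (HTSeq) and the expected count per gene and per transcript (RSEM). Expected counts were rounded to whole numbers. Of 54752 gene and 138835 transcript identifiers, 54723 and 138789 were matched to GENCODE M21 on GRCm38, and 92 spike-in sequences were kept apart. No columns were identical, and the lowest chi-square per degree of freedom between 2 oocytes of a group was 9.01.

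Tests were run within each batch in edgeR 4.0.16 (R 4.3.3) with filterByExpr, TMM scaling, quasi-likelihood F-tests and Benjamini-Hochberg adjustment over all genes or transcripts tested, and a call needed both a fold change over 2 and an adjusted p under 0.05. Transcript usage was tested with diffSpliceDGE at an adjusted p under 0.05, and the difference between the MII and MI changes was tested in a model of all oocytes. Standard errors are the absolute log2 fold change over the square root of F. Depth per oocyte was from 2709247 to 19390137 expected counts. The alternatives were HTSeq counts, no low-count filter, RLE size factors, DESeq2 1.42.0, limma-voom 3.58.1, no fold limit, batch as a covariate, the replicate number as a block, spike-in scaling in batch A, and each oocyte left out in turn. Another 3 were chosen after seeing the data: MI oocytes 4, 8 and 9 left out with either kind of counts, and spike-in scaling without MII oocyte 1. The fits were also tested on simulated data.

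The members and lists were chosen with earlier results of these data known. Genes named were the 9 members, the gene most alike each of them, in each pathway list the 2 highest and 2 lowest changes at an adjusted p under 0.05 in batch A, and any list gene called in batch B. Transcripts described by their share or change had at least 10% of a member's counts in the mean of a group, or were past a threshold. Not all transcripts that met this rule are described. Some others are named only because their sequence was searched or because they share a border with a transcript described. Tables and figures were made in Python 3.11.15 with pandas 2.3.3, numpy 2.4.6 and matplotlib 3.10.9. Protein sequences were not analysed here, because no protein table was at hand.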

Additional observations from a re-analysis of the deposited data

Results flagged for a closer look

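In 108 groups of oocytes, made by 1 measure of 1 gene or transcript in 1 stage of 1 batch, the lowest or highest oocyte was compared with its neighbour by a gap test at a level that about 1 in 20 groups would pass by chance. The MI oocytes were not examined, because the test was not set up for a group of their size. A value passed this test in 7 of the 108 groups. The level holds for independent groups of normal values, while the shares of a gene's transcripts are linked and bounded. Whether 7 is more than chance would give was therefore not tested. Ckap5 per 1000 spike-in counts was 20.73 in MII oocyte 2, and the next oocyte had 16.79. In GV oocyte 7 of batch B, Cep192-201 took 0% of the Cep192 counts (next 49.1%), Cep192-206 took 34.6% (next 17.9%), Tacc3-204 took 4.4% of the Tacc3 counts (next 2.56%) and Numa1-202 took 12.2% of the Numa1 counts (next 1.92%). Cep192-208 took 16% in MII oocyte 6 (next 33.7%), and Nedd1-201 took 99.9% in GV oocyte 3 of batch A, where the others had 100%. As 100% is the upper limit of a share, any gap below it would pass the test, and nothing is drawn from this value. Of these 7 values 4 came from GV oocyte 7 of batch B. None of the 9 tests of a difference between the MII and MI changes passed the threshold.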

How the results depend on the processing

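Tacc3 kept its fall at MII past an adjusted p of 0.05 under all 8 alternatives that could change it (log2 fold change -1.37 to -0.51) and with each oocyte left out (-0.685 to -0.547). Clasp2 did so for its rise under 6 and Nedd1 under 5 of 8, and both with each oocyte left out. In batch B no member passed under any alternative. Of the values besides the leading counts, 403 kept their side of the threshold and their direction under these alternatives, 46 lost the threshold, 6 gained it, 62 counts or medians moved and 28 had the opposite sign. In MI oocyte 15, which had the lowest depth, Clasp2 had 14 counts.

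With spike-in scaling in batch A, the 1095 genes called became 3919 (3815 without MII oocyte 1), and the 1252 transcripts called became 4321. Members higher at MII went from 3 to 0 (0 without MII oocyte 1), members lower from 1 to 3 (3), members called from 0 to 1 (1) and member transcripts called from 0 to 6. Signs turned, here with the value without MII oocyte 1 second, for Pcnt (-0.368 and -0.382), Cep192 (-0.284 and -0.217), Nedd1 (-0.212 and -0.186), Ckap5 (-0.423 and -0.401), Numa1 (-0.169 and -0.217), Apc (-0.104 and -0.096), Camsap2 (-0.215 and -0.229), Cep120 (-0.134 and -0.129), Gnai3 (-0.172 and -0.192), Pcm1 (-0.225 and -0.197), Slain2 (-0.234 and -0.221) and Tubg2 (-0.061 and -0.066). Nde1 turned to -0.03 with all oocytes alone, and Ckap5-204 and Nedd1-201 turned to -0.263 and -0.212. On that scale the median of all genes was lower, at -0.716 against 0.0127 with TMM. The standard errors of the 9 genes were larger, for Tacc3 0.243 against 0.135. The part of each in these shifts was not tested.

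Without the low-count filter, which tests more genes, the genes called in batch A were 1859 and in batch B 40 in place of 15, transcripts in batch B 2 in place of 0, and interaction genes 1600 in place of 823, with 1 member in place of 0. Members higher at MII were then 1. With no fold limit, 2662 genes, 2089 transcripts, 4 members and 4 member transcripts passed in batch A. DESeq2 called 174 genes and 188 transcripts in batch B and 2172 transcripts in batch A, with 1 member transcript. HTSeq counts gave 0 genes in batch B (0 also without MI oocytes 4, 8 and 9) and 319 interaction genes, and in batch A 101 genes higher and 676 lower. Expected counts without MI oocytes 4, 8 and 9 gave 36. Batch as a covariate gave 653 genes in batch A and 107 in batch B. Usage by limma-voom gave 669 transcripts in place of 146 in batch A and 18 in place of 4 in batch B. With each oocyte left out, genes called were 842 to 1246 in batch A and 0 to 82 in batch B, transcripts 913 to 1269 and usage 105 to 195 in batch A. The log2 fold change of Cep192 in batch B was then -0.05 (without GV oocyte 5) to 0.089 (without GV oocyte 6), and that of Clasp1 in batch A was -0.172 (without MII oocyte 4) to 0.003 (without MII oocyte 3). The cause was not tested.

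With the replicate number as a block (replicate block), transcripts called in batch A were 532, genes in batch B 0, usage in batch B 0, and the log2 fold change of Cep192 in batch B was -0.007. The 4 member transcripts at an adjusted p under 0.05 in batch A all missed it with the block (Nedd1-201 0.0764, Ckap5-204 0.117, Tacc3-203 0.0929 and Tacc3-204 0.116), as did Cep192 (0.128), Camsap2 (0.0652), Cep120 (0.0694), Cntrob (0.0608), Dync1i2 (0.11), Haus1 (0.07), Nde1 (0.0922), Nusap1 (0.0661) and Slain2 (0.0617). Oocytes of the same number did not pair: r was -0.327 to 0.341 in batch A, with 1 of 6 over 0.1 and 1 the best match, and -0.146 to 0.107 in batch B, with 1 of 10 over 0.1 and 0 the best match. The cause was not tested.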
